A study of Bos taurus with 16 samples.

Results

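This report describes 6 interferon-stimulated genes in the whole blood of dairy cattle: ISG15 (ENSBTAG00000014707), MX1 (ENSBTAG00000030913), MX2 (ENSBTAG00000008471), RSAD2 (ENSBTAG00000016061), IFI6 (ENSBTAG00000007554) and OAS1Y (ENSBTAG00000039861). They are 6 of the 24616 Ensembl gene identifiers that were counted, and were taken by identifier, from a choice made with earlier results of these data known. The count files give identifiers only, and the RefSeq name table at hand pairs 0 of them with a symbol. The gene names used here are therefore assigned names, and no table at hand could check them.

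The study sequenced blood RNA in 8 samples labelled with a high and 8 labelled with a low yield of milk protein, with 1 library per numbered sample. All were dairy cattle, Bos taurus, sampled as whole blood and given no treatment in the labels. The design text names the 2 groups as low and high RFI instead, an abbreviation it does not spell out, and the sample labels were followed. No label gives breed, age, lactation stage, pregnancy, infection, vaccination or a count of blood cells. Each numbered sample is called an animal here, although the labels do not say that the samples came from separate animals, and p-values measure the spread between these 16 samples.

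Interferons are signalling proteins that cells release on sensing viral nucleic acid. Type I interferons bind a receptor on nearby cells, and the signal from this receptor switches on the interferon-stimulated genes. In ruminants the early embryo also secretes a type I interferon, interferon tau, and the level of such genes in blood leukocytes is known as a readout of early pregnancy as well as of viral infection.

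Library totals ran from 23727368 to 39793845 counts in genes. The library of high-yield animal 4 was unlike the other 15: it had a count for 12197 genes, where they had one for 15494 to 16217, so levels, spread, correlations and group differences are also given without it. The libraries also fell into 2 sets by the share of non-unique alignments, 7.83% to 8.81% in 8 animals (4 high-yield, 4 low-yield) and 4.0% to 4.81% in 7 (3 high-yield, 4 low-yield), with high-yield animal 4 between them at 6.08%. Because no symbol table matched, markers of blood cell types could not be scored, and neither could other genes of the interferon pathway. In whole blood, a different number of cells of a type and a different amount of RNA per cell cannot be told apart.

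All 6 genes passed the filter on low counts, as did 13159 of the 24616 identifiers. Levels are TMM CPM, the count divided by its library's total after that total was scaled by the trimmed mean of M values, times 1000000. Transcript lengths were not at hand, so levels are compared between animals and not between genes.

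ISG15 encodes a ubiquitin-like protein that is attached to other proteins in interferon-treated cells. Its level was 20.4 CPM in the lowest, 46.5 CPM in the median and 387 CPM in the highest high-yield animal, and 32.1, 62.0 and 339 CPM in the low-yield animals. One animal in each group was far above the rest: high-yield animal 4 at 387 CPM, with 80.4 CPM next in its group, and low-yield animal 2 at 339 CPM, with 65.9 CPM next. The other 14 animals lay between 20.4 and 80.4 CPM.

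IFI6 encodes a small hydrophobic membrane protein with antiviral activity. It ran from 30.9 CPM over a median of 46.2 CPM to 143 CPM with high yield, and from 22.8 over 44.3 to 138 CPM with low yield. The same 2 animals were the highest, and the groups otherwise covered much the same range, with the next animals at 76.7 and 52.7 CPM.

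OAS1Y is one of the bovine copies of OAS1, an enzyme that senses double-stranded RNA and makes short oligoadenylates that activate the nuclease RNase L. The lowest, median and highest levels were 9.49, 19.3 and 53.4 CPM in high-yield and 11.5, 16.3 and 155 CPM in low-yield animals. Low-yield animal 2 was 2.89-fold above the next animal of all 16, which was high-yield animal 4. In the RefSeq table OAS1Y overlaps OAS2 and is followed by OAS1X. Reads that fit more than 1 gene or place were counted for none, so the level of OAS1Y may be counted low.

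RSAD2 encodes viperin, an enzyme that makes a chain-terminating nucleotide against viral polymerases. High-yield animals had 3.93 CPM at the lowest, 7.66 at the median and 12.8 at the highest, and low-yield animals 4.95, 6.47 and 58.2 CPM. Low-yield animal 2 alone was high, 4.21-fold above the next animal, low-yield animal 7 at 13.8 CPM. High-yield animal 4, so high in ISG15, had 6.73 CPM of RSAD2, which is 0.947 times the median of the 16 animals.

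MX1 and MX2 encode dynamin-like GTPases that block viral replication, and they are next to each other in the RefSeq table. MX1 ran from 164 over 285 to 558 CPM in high-yield animals and from 135 over 490 to 709 CPM in low-yield animals. Low-yield animal 2 was the highest here too, but only 1.07-fold above low-yield animal 5 at 661 CPM, and low-yield animal 3 was the lowest of all. In 7 of 8 high-yield animals MX1 was below the low-yield median, and 3 low-yield animals were above every high-yield animal.

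MX2 ran from 3.73 over 32.5 to 60.3 CPM in high-yield animals and from 29.7 over 53.6 to 207 CPM in low-yield animals. Both ends were set by the 2 animals named above: high-yield animal 4 was the lowest at 3.73 CPM, from 92 counts, and low-yield animal 2 was the highest, 2.83-fold above low-yield animal 6. The high-yield group's next lowest animal had 23.2 CPM. Of the 8 high-yield animals 4 lay below every low-yield animal, and 3 low-yield animals lay above every high-yield animal. The groups overlapped for all 6 genes. The share of all tested genes with such overlap was not computed, so this is not shown to be particular to these 6.

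**Figure D1:**
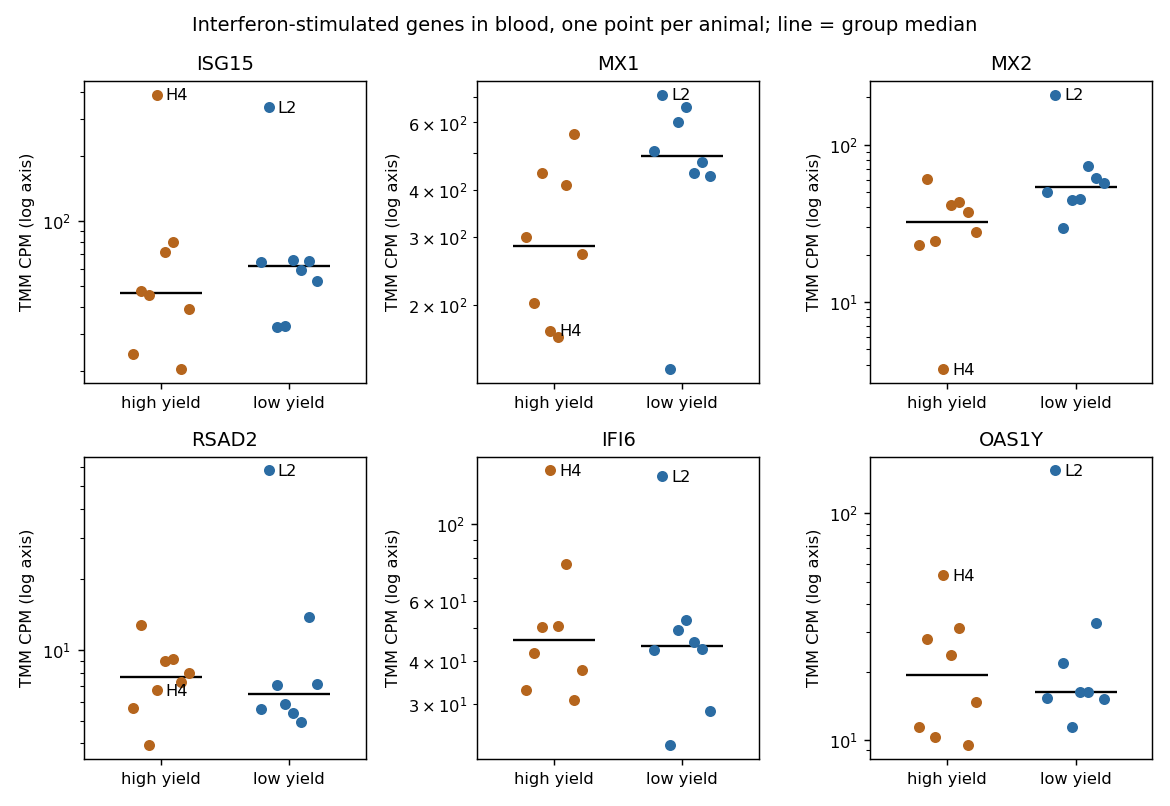
TMM CPM on a log axis (each panel has its own range) for the 6 genes in 8 high-yield and 8 low-yield animals. Points are animals, the line is the group median, and H4 and L2 mark high-yield animal 4 and low-yield animal 2: L2 is the highest low-yield animal in all 6 panels, while H4 is at the top for ISG15 (387 CPM) and at the bottom for MX2 (3.73 CPM).

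Counting error was small beside the largest of these differences, but not beside the smaller ones between animals in RSAD2. There the 95% Poisson interval of the lowest count had a half-width of 20.4% of that count. The fewest counts of a gene in any library were 92 for MX2 in high-yield animal 4 (exact 95% Poisson interval 74.2 to 113) and 97 for RSAD2 in high-yield animal 3 (78.7 to 118), and the lowest MX1 count was 3898. Such intervals cover counting error only, since reads were not marked by molecule.

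Read animal by animal, low-yield animal 2 was above the 16-animal median in all 6 genes and at least 2-fold above it in 5. It was 9.5-fold above the median for OAS1Y, 8.19-fold for RSAD2, 6.05-fold for ISG15, 4.73-fold for MX2, 3.11-fold for IFI6 and 1.62-fold for MX1. It was the highest of the 16 animals in 4 of the 6 genes, against 3.20% of the 11956 genes with a mean of at least 1 CPM. Its library was unremarkable in total counts (31521347) and in genes with a count (15969), and its non-unique share was 4.55%.

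High-yield animal 4 had a mixed pattern. It was 6.90-fold above the median for ISG15, 3.28-fold for OAS1Y and 3.23-fold for IFI6, near it for RSAD2, and at 0.390 times the median for MX1 and 0.0852 times for MX2. This animal was the highest of the 16 in 27.6% of the 11956 genes, so a high value in it is common. The part of its library in this pattern was not tested.

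Among the other 14 animals no gene was more than 2.02-fold above its median, a value reached by OAS1Y in low-yield animal 7. Low values were more frequent, such as 0.308 times the median for MX1 in low-yield animal 3 and 0.365 times for ISG15 in high-yield animal 7. High-yield animal 1 was below the median in all 6 genes, from 0.429 times for ISG15 to 0.798 times for RSAD2.

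**Figure D2:**
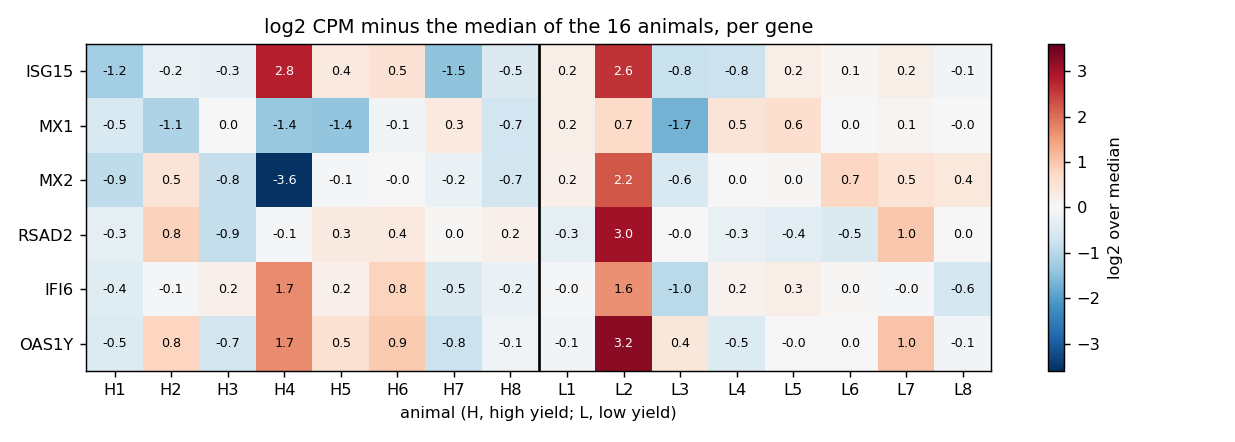
Difference of log2 CPM from the median of the 16 animals for each gene (rows) and animal (columns, high-yield H1 to H8, low-yield L1 to L8). Low-yield animal 2 is raised in all rows, by 0.69 to 3.25 on the log2 scale, and high-yield animal 4 runs from 2.79 for ISG15 to -3.55 for MX2.

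Whether the 6 genes rise and fall together was asked first, because the names rest on the identifiers alone. They did not do so as 1 block. Over the 16 animals the 15 pairs had a median Spearman rho of 0.32 in log2(CPM + 1), with a range of -0.21 to 0.81, and 13 were positive. The median over all 86573061 pairs of tested genes was 0.003. A rho of at least 0.7 was reached by 2 of the 15 pairs and by 3.73% of all pairs.

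ISG15 went with IFI6 and with OAS1Y. ISG15 and IFI6 had rho = 0.81 (permutation p = 0.00027) and r = 0.90 (permutation p = 5.0e-05), and r was 0.65 without the 2 animals farthest from the ISG15 median, high-yield animal 4 and low-yield animal 2. ISG15 and OAS1Y had rho = 0.79 (permutation p = 0.00047) and r = 0.86 (permutation p = 0.00013), and r was again 0.65 without these animals. Among the 13158 other tested genes, IFI6 had rank 10 and OAS1Y rank 13 by rho with ISG15. IFI6 and OAS1Y themselves had rho = 0.51 (permutation p = 0.0454) and r = 0.75 (permutation p = 0.00156), which fell to r = 0.29 without the same 2 animals, so this relation rested on them. These p-values are two-sided, from 100000 permutations, and not adjusted for the 15 pairs.

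RSAD2 went with OAS1Y, at rho = 0.57 (permutation p = 0.0236) and r = 0.85 (permutation p = 0.00087), and without low-yield animals 2 and 7 rho was 0.39 and r 0.51. Without low-yield animal 2 alone, rho was 0.475 (permutation p = 0.0756) and r 0.59 (permutation p = 0.0216). Without high-yield animal 4 alone, rho was 0.65 (permutation p = 0.0109) and r 0.93 (permutation p = 4.0e-05). With both of these animals left out, rho was 0.56 and r 0.77, so the pair did not rest on low-yield animal 2 alone. RSAD2 with ISG15 had a rho of 0.27 (permutation p = 0.309; r = 0.53, permutation p = 0.0553), and with IFI6 it was 0.04 (permutation p = 0.892; r = 0.47, permutation p = 0.0820). The higher r than rho in each case came with low-yield animal 2, and without it r was 0.09 and -0.02.

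MX1 did not follow the others over the 16 animals. Its rho was 0.06 with ISG15, 0.24 with IFI6, -0.13 with RSAD2 and -0.21 with OAS1Y, with permutation p from 0.372 to 0.839. With its neighbour MX2 it had rho = 0.48 (permutation p = 0.0633) and r = 0.54 (permutation p = 0.0240). Without the 2 animals farthest from the MX1 median, rho was 0.43 and r 0.66. Without high-yield animal 4 the MX1 and MX2 pair had rho = 0.40 (permutation p = 0.137) and r = 0.42 (permutation p = 0.115). Without low-yield animal 2 as well, rho was 0.27.

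MX2 had no rho above 0.48 with any of the 5 other genes over all 16 animals, and high-yield animal 4, with the lowest MX2 and the highest ISG15, bore on this. Without that animal MX2 reached rho = 0.60 with ISG15 (permutation p = 0.0204) and 0.62 with OAS1Y (permutation p = 0.0147), and r was 0.82 and 0.81. These values rested in part on low-yield animal 2: without it as well, rho was 0.51 with ISG15 (permutation p = 0.0673; r = 0.55) and 0.53 with OAS1Y (permutation p = 0.0529; r = 0.46). The median rho of the 15 pairs was 0.40 without high-yield animal 4 and 0.27 without both animals, where the pairs of ISG15 with IFI6 and with OAS1Y were still at 0.71 and 0.70.

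**Figure D3:**
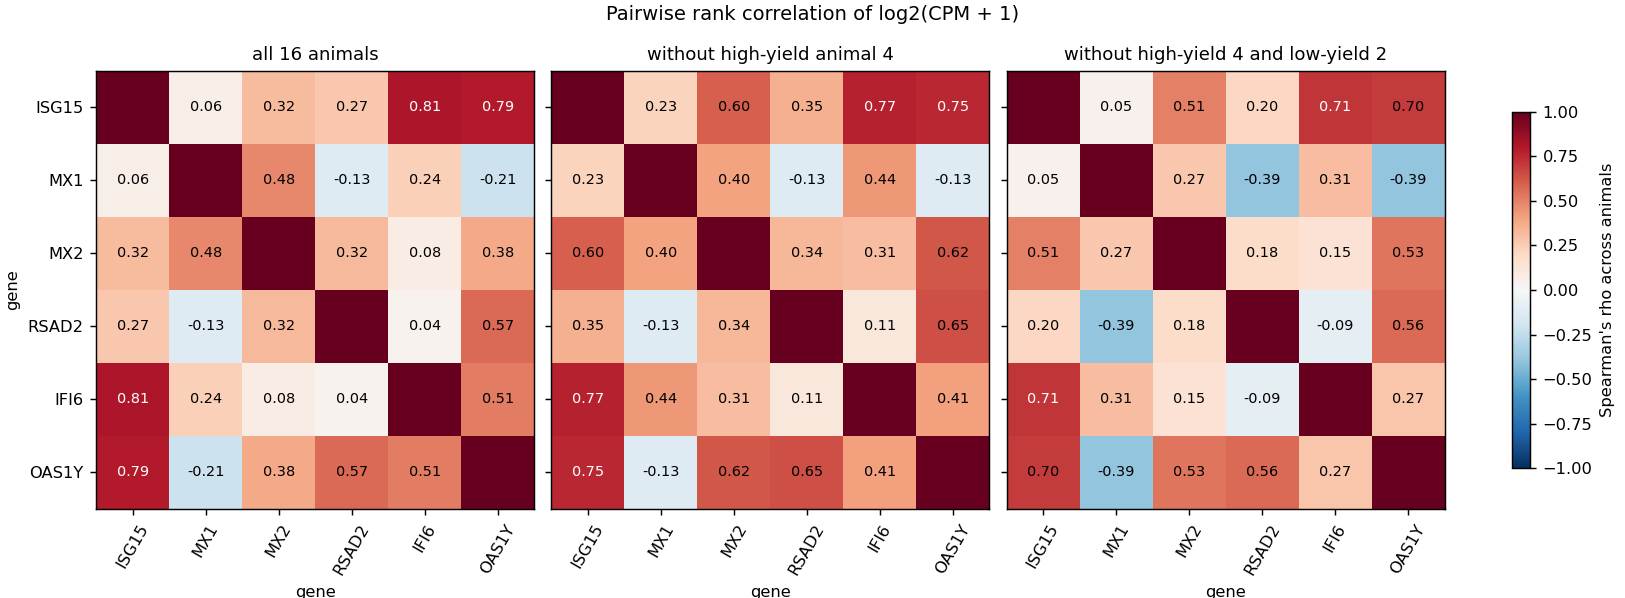
Spearman's rho of log2(CPM + 1) for the 15 gene pairs over all 16 animals, over 15 without high-yield animal 4, and over 14 without low-yield animal 2 as well. ISG15 with IFI6 and ISG15 with OAS1Y are the strongest pairs in the first panel (0.81 and 0.79), and the MX1 row has values of -0.39 to 0.48 over the 3 panels.

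Within the yield groups, the ISG15 and IFI6 pair had rho = 0.98 among the 8 high-yield and 0.69 among the 8 low-yield animals, and ISG15 with OAS1Y had 0.90 and 0.50. Within the sets by non-unique share, ISG15 with IFI6 had rho = 0.71 in the higher and 0.82 in the lower set, and ISG15 with OAS1Y had 0.50 and 0.89. The MX1 and MX2 pair had -0.02 and 0.26 within high-yield and low-yield animals, below its value of 0.48 over all 16. MX1 differed most between the groups: with IFI6 and ISG15 its rho was 0.90 and 0.74 within the low-yield animals, but -0.50 and -0.60 within the high-yield animals. With 8 animals a group this is a description, and the difference between the groups was not tested.

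The genes most like these 6 were sought among 11950 other tested genes with a mean of at least 1 CPM, by the mean rho with the 6 over 16 animals. None reached a mean rho of 0.8 and 3 reached 0.5. The 4 highest were ENSBTAG00000037800 (mean rho 0.55), ENSBTAG00000045588 (0.54), ENSBTAG00000016546 (0.50) and ENSBTAG00000020538 (0.49), for which no name was at hand. ENSBTAG00000045588 had rho = 0.94 with OAS1Y, 0.90 with ISG15 and -0.14 with MX1. It ran from 3.47 CPM over a median of 7.29 to 27.1 CPM in low-yield animal 2. The same 4 genes led without high-yield animal 4, and with both animals left out 4 others led, with mean rho of at most 0.53.

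The 6 genes varied more between animals than most. The SD of log2(CPM + 1) over 16 animals was 1.14 for ISG15, 1.11 for MX2, 0.99 for OAS1Y, 0.83 for RSAD2, 0.76 for MX1 and 0.71 for IFI6. The median SD of the 6 was 0.91, and the median over the 13159 tested genes was 0.40. ISG15 had a larger SD than 98.6% of tested genes and IFI6, the least variable of the 6, than 88.3%. The highest animal exceeded the lowest 55.5-fold for MX2, 18.9-fold for ISG15 and 5.25-fold for MX1.

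Much of this spread came with the same 2 animals. Without high-yield animal 4 the SD was 0.93 for ISG15, 0.76 for MX2 and 0.96 for OAS1Y. It was 0.86 for RSAD2, 0.73 for MX1 and 0.60 for IFI6. The median of the 6 was then 0.81, against 0.30 over all tested genes. MX2 then exceeded 97.1% of tested genes in SD, down from 98.4% with all 16 animals. The other genes of the 6 moved up, such as RSAD2 from 93.4% to 98.3%. Without low-yield animal 2 the SD of RSAD2 was 0.43, against a median of 0.40 over all tested genes with that animal left out. With both left out the median SD of the 6 genes was 0.53, against 0.30 over all tested genes. MX1 changed least, at 0.71, and was then the most variable of the 6, above 95.7% of tested genes.

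**Figure D4:**
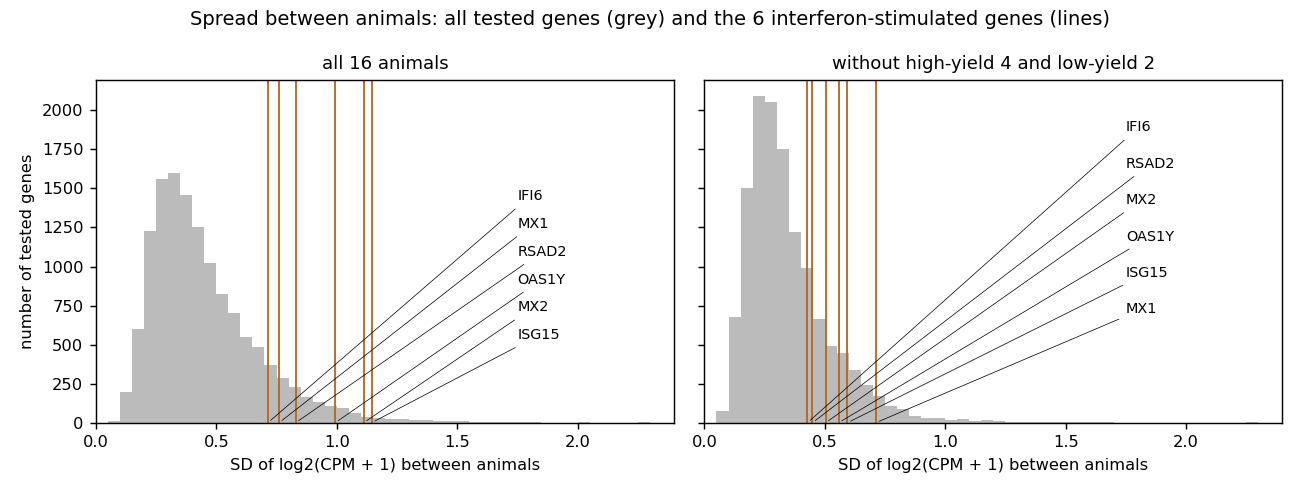
Histogram of the SD of log2(CPM + 1) between animals over the 13159 tested genes (grey), with the 6 interferon-stimulated genes as lines, for all 16 animals and without high-yield animal 4 and low-yield animal 2. The lines lie at 0.71 to 1.14 in the left panel and at 0.43 to 0.71 in the right one.

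The spread was also compared between the yield groups, as the mean distance of an animal from its group median in log2(CPM + 1). For ISG15 it was 0.85 with high yield against 0.60 with low yield (exact permutation p = 0.579), and for RSAD2 0.32 and 0.63 (exact permutation p = 0.540). The exact p for MX1, MX2, IFI6 and OAS1Y was 0.584 to 0.919. No gene of the 13159 passed an adjusted p of 0.05 in this test. The smallest possible p was 0.0001554, so a gene could pass only together with many others at or near that value. The absence of passing genes therefore says little about spread. Without high-yield animal 4 the exact p of the 6 genes ran from 0.621 to 0.943. Without low-yield animal 2 the distance for OAS1Y was 0.72 against 0.29, the high-yield value being larger (exact permutation p = 0.0371, adjusted p = 0.999 over all tested genes).

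The level was then compared between high-yield and low-yield animals in edgeR's quasi-likelihood test on all 13159 genes. None of the 6 genes was called at an adjusted p below 0.05, where 0% of all tested genes were called. DESeq2 and limma voom each called 2 genes, none of them among the 6. At an unadjusted p below 0.05 there were 2 of the 6, MX1 and MX2, both lower in high-yield animals. This count was 0 without low-yield animal 2 (edgeR's unadjusted p = 0.106 for MX1 and 0.0924 for MX2) and 1 or 2 with any other single animal left out. It was also 1, MX2 alone, with DESeq2 size factors, upper-quartile factors, library totals alone or no filter, where MX1 lay just over the threshold. With DESeq2 it was 3, since ISG15 was also lower (DESeq2's unadjusted p = 0.0439), beside 459 of all 13159 tested genes. In the libraries with the higher non-unique share it was 2, MX1 and RSAD2, beside 2203 of 13275 tested genes. RSAD2 was there higher in high-yield animals (edgeR's unadjusted p = 0.0366). In edgeR with all 16 animals, 2.55% of all tested genes stood at that threshold, and 0.692% were there and lower in high-yield animals. The median log2 fold change of the 6, high minus low, was -0.65, against -0.01 over all tested genes. Of the 6 genes 4 were negative, as were 51.6% of all tested genes.

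MX2 had a mean of 32.6 ± 16.8 CPM in the 8 high-yield animals, beside 70.9 ± 56.5 CPM (both with SD) in the 8 with low yield. edgeR put the difference at -1.12 on the log2 scale (SE 0.437, 95% interval -2.04 to -0.20), that is 2.17-fold higher in low-yield animals, with an adjusted p of 0.986. Taken alone, MX2 had p = 0.0165 in the exact permutation test on log2(CPM + 1). The difference of 1.12 in mean log2(CPM + 1) was close to the SD between animals, 1.13 with high and 0.81 with low yield. Its direction was the same in all 28 alternative settings, but its size rested in part on low-yield animal 2, without which the log2 fold change was -0.65 (edgeR adjusted p = 0.954).

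MX1 had a mean of 315 ± 143 CPM with high yield, beside 496 ± 178 CPM with low yield (SD over 8 animals each). edgeR put this at -0.65 on the log2 scale (SE 0.305, interval -1.29 to -0.01), with an adjusted p of 0.986 in edgeR and an exact permutation p of 0.0875 for the gene alone. MX1 was lower in the high-yield group in all 28 alternatives, by 0.23 to 0.87 on the log2 scale, and was called in none of them.

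RSAD2 and OAS1Y had lower means in high-yield animals, and for both the sign turned when low-yield animal 2 was left out. RSAD2 averaged 7.81 ± 2.63 and 13.5 ± 18.3 CPM (SD, n = 8), with a log2 fold change of -0.79 (SE 0.488), and without that animal the change was 0.14. OAS1Y averaged 22.8 ± 14.9 and 35.4 ± 48.6 CPM (SD, n = 8), with a log2 fold change of -0.64 (SE 0.541), and without it 0.31. Both had an adjusted p of 0.986 in edgeR, and exact permutation p of 0.704 and 0.667.

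ISG15 and IFI6 differed little in mean. ISG15 averaged 89.5 ± 122 CPM with high and 88.9 ± 102 CPM with low yield (SD, n = 8), a log2 fold change of 0.01 (SE 0.613). The difference of mean log2(CPM + 1), high minus low, had the other sign, -0.21 (exact permutation p = 0.704). IFI6 averaged 58.1 ± 37.4 and 52.9 ± 35.8 CPM (SD, n = 8), a log2 fold change of 0.13 (SE 0.365). Their adjusted p in edgeR was 0.999 and 0.988. The 95% interval for ISG15, -1.28 to 1.3, leaves room for a difference of more than 2-fold in either direction.

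Without high-yield animal 4, 0 of the 6 genes were called, with 0% of the 13264 genes then tested. MX2 was the 1 gene of the 6 at an unadjusted p below 0.05, where 3.82% of tested genes stood. Its level was lower in high-yield animals, as for 1.67% of tested genes at that threshold. The log2 fold change was then negative for all 6 genes, with a median of -0.84. Of all tested genes 53.9% were negative, with a median of -0.02. The change was -0.92 for ISG15 (SE 0.478), -0.56 for MX1 (SE 0.300) and -0.95 for MX2 (SE 0.353). It was -0.76 for RSAD2 (SE 0.516), -0.20 for IFI6 (SE 0.316) and -0.94 for OAS1Y (SE 0.540). The edgeR adjusted p was 0.854 for 5 of them and 0.903 for IFI6. The high-yield mean of ISG15 fell from 89.5 to 47.0 ± 22.4 CPM (SD, n = 7) when the animal was left out, against 88.9 ± 102 CPM in the low-yield group. High-yield means in CPM were then 336 for MX1, 36.8 for MX2, 7.96 for RSAD2, 45.9 for IFI6 and 18.4 for OAS1Y.

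The shared negative sign without that animal rested in turn on low-yield animal 2. With both left out the 6 log2 fold changes had a median of -0.08, with 3 negative, and were -0.48 for MX2 (SE 0.220), -0.45 for MX1 (SE 0.314) and between -0.18 and 0.18 for the other 4 genes (edgeR adjusted p 0.626 to 0.995). The exact permutation p for MX2 was then 0.0618. The low-yield mean of ISG15 without animal 2 was 53.2 ± 15 CPM (SD, n = 7), and that of RSAD2 was 7.13 ± 3.07 CPM, beside 7.96 ± 2.81 CPM in the 7 high-yield animals without animal 4.

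**Figure D5:**
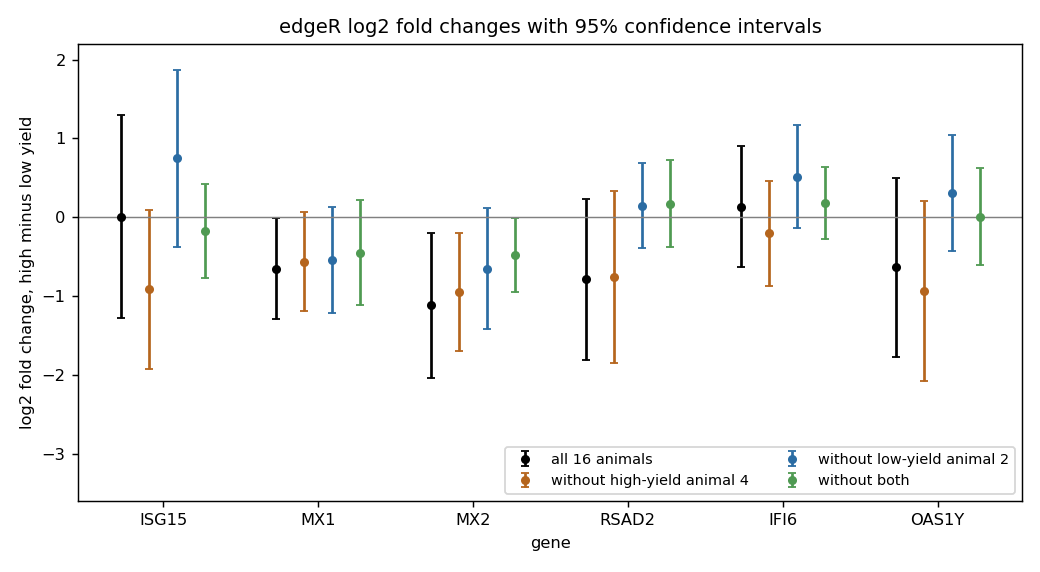
Log2 fold change (high minus low yield) from edgeR with its 95% confidence interval for each gene, with all 16 animals, without high-yield animal 4, without low-yield animal 2, and without both. ISG15 moves from -0.92 to 0.75 with the animal left out, while MX1 and MX2 are negative in all 4 fits, at -0.65 to -0.45 and -1.12 to -0.48.

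Within the sets by non-unique share the 6 genes did not behave alike. In the 8 libraries of the higher set, where neither of the 2 outlying animals was, the log2 fold change was -0.87 for MX1 (edgeR adjusted p = 0.291), -0.41 for MX2 (0.548) and 0.56 for RSAD2 (0.270). In the 7 libraries of the lower set, which hold low-yield animal 2, it was -0.23 for MX1, -1.36 for MX2, -1.59 for RSAD2 and -1.65 for OAS1Y (edgeR adjusted p = 0.966 each). The sign of RSAD2 and OAS1Y thus differed between the sets, and that difference was not tested.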

How the data were processed

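Blood RNA of 16 cattle (3 µg per library) was prepared with the NEBNext Ultra kit, per the labels' protocols. The deposited files hold raw counts of reads per Ensembl gene, not normalized by the authors. TopHat2 2.1.1, SAMtools 1.4, HTSeq and the bovine build UMD3.1 are named per the submitters' processing notes. The sources used here state neither the strand setting nor the annotation release, so reads of antisense neighbours cannot be told apart. The 5 HTSeq entries without a gene (18.3% to 23.6% of alignments in no gene, 0.556% to 0.887% ambiguous, 4.0% to 8.81% non-unique) were left out.

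From the counts, TMM factors, filterByExpr (minimum count 10, total 15), the quasi-likelihood test of edgeR 4.0.16 (R 4.3.3) over 13159 genes and Benjamini-Hochberg adjustment were computed. Intervals are 95%. Exact permutation tests used all divisions of the animals into the 2 group sizes, two-sided, on log2(CPM + 1), where the smallest possible p with 16 animals is 0.0001554. Correlations were permuted 100000 times (numpy 2.4.6). Alternatives were other scalings, filters, robust dispersion, DESeq2 1.42.0, limma 3.58.1, the replicate number as a block, animals left out and sets of libraries. The edgeR and exact permutation tests were tested on simulated data.

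The genes were taken by identifier, and the 4 most similar genes by mean Spearman rho. Members and lists were chosen with earlier results of these data known. A pathway list and blood cell markers were listed by symbol and could not be scored, since 0 identifiers matched the 37063 genes of the RefSeq table (ARS-UCD2.0). Sequences were not used here.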

Additional observations from a re-analysis of the deposited data

Results flagged for a closer look

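For each gene and yield group, the top and the bottom animal were set against the other 7 in log2(CPM + 1). In 8 of these 12 sets the gap to the nearest animal was over 0.526 of the group's range. For normally distributed values this is met in about 5% of such sets, and the 6 genes are not independent of each other. The share over all tested genes was not computed, so the count is not shown to be particular to these 6. High-yield animal 4 was the highest of the 16 by at least 2-fold in 736 of 11956 genes. Low-yield animal 2 was the far animal in 5 of the 8 sets over that limit. These were ISG15 at 339 CPM (next 65.9), MX2 at 207 CPM (next 73.1), RSAD2 at 58.2 CPM (next 13.8), IFI6 at 138 CPM (next 52.7) and OAS1Y at 155 CPM (next 32.8). High-yield animal 4 was far above its group in ISG15, at 387 CPM (next 80.4), and far below it in MX2, at 3.73 CPM (next 23.2). Low-yield animal 3 was far below its group in MX1, at 135 CPM (next 436).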

How the results depend on the processing

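No member was called under any of the 28 alternatives. Genes called were 0 in edgeR with all 16 animals, 2 with DESeq2, 2 with limma voom, and 0 to 1 when each animal was left out. The median log2 fold change of the members was -0.65 and ran from -0.84 to 0.23 with 1 animal left out, the ends being high-yield animal 4 and low-yield animal 2, and it was -1.37 within the lower non-unique set.

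ISG15, at 0.01, was -0.19 with library totals alone, -0.0039 with no filter, -0.89 with DESeq2, which replaced the ISG15 count of high-yield animal 4, -0.51 with limma voom, -0.084 and -1.39 within the higher and lower sets, -0.18 without high-yield animal 4 and low-yield animal 2, and -0.92 to 0.75 with 1 animal left out. RSAD2, at -0.79, was 0.15 with DESeq2, which replaced the RSAD2 count of low-yield animal 2, 0.22 with limma voom, 0.56 within the higher set, 0.17 without both animals, and -0.93 to 0.14 with 1 left out. IFI6, at 0.13, was -0.16 with limma voom, -0.0029 and -0.28 within the higher and lower sets, and -0.20 to 0.51 with 1 left out. OAS1Y, at -0.64, was 0.24 within the higher set, 0.0067 without both animals, and -0.94 to 0.31 with 1 left out. The cause of these sign changes beyond the animals left out or replaced was not tested. With limma voom MX1 had an adjusted p of 0.0641 and MX2 of 0.0985. That fit placed 3586 of the 13159 tested genes at an unadjusted p below 0.05, against 335 in edgeR. By p in limma voom, MX1 had rank 522 and MX2 rank 1704.

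With the replicate number as a block the log2 fold change of ISG15 was -0.31, 0 genes were called and the members' median was -0.29. Same-numbered animals are not said to be paired: the correlation of their deviations was over 0.1 in 1 of 8 pairs.

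The lowest rho of a pair was -0.21, -0.48 to -0.13 with 1 animal left out, -0.39 without both animals, -0.67 and -0.024 within high-yield and low-yield animals, -0.71 and 0.21 within the higher and lower sets, and -0.0735 with Pearson's r. Without low-yield animal 2 rho was -0.10 for ISG15 and MX1, -0.068 for MX2 and IFI6, and -0.14 for RSAD2 and IFI6; without high-yield animal 4 these were 0.225, 0.31 and 0.11. The 95% intervals limit what 8 against 8 animals can show.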

Other observations

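Low-yield animal 2 was at least 2-fold above the next animal in 12 of the 11956 genes with a mean of at least 1 CPM, or 0.10%, and 3 of these 12 were MX2, RSAD2 and OAS1Y. In the other animals the number of such genes was 0 to 14, except 736 in high-yield animal 4, and none of those were among the 6 interferon-stimulated genes. Of the remaining 9 genes, for which no name was at hand, ENSBTAG00000014628 stood furthest out, at 47.2 CPM in low-yield animal 2 against 8.49 CPM in the next animal, a 5.55-fold gap. ENSBTAG00000037527 was at 163 CPM against 58.8 CPM in low-yield animal 7. In high-yield animal 4 these genes had 7.75 CPM, above the 16-animal median of 2.64 CPM, and 12.3 CPM, below the median of 26.8 CPM. These genes were picked after their values were seen, and no test was made on them.

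Within animals the ratio of ISG15 to IFI6 was steadier than that of MX1 to MX2. The SD of the log2 ratio was 0.60 for ISG15 to IFI6, 0.59 for ISG15 to OAS1Y and 0.56 for RSAD2 to OAS1Y, against 1.0 for MX1 to MX2. Without high-yield animal 4 these were 0.54, 0.49, 0.37 and 0.81. In low-yield animal 2 the log2 ratio of RSAD2 to OAS1Y was -0.0072 from the median of the animals, although both genes were over 8-fold above their medians there. The other ratios were farther from their medians in that animal, by 0.94 for ISG15 to IFI6, -0.32 for ISG15 to OAS1Y and -1.49 for MX1 to MX2.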
